A study of Mus musculus with 3 samples.

Results

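The transcription factors Tbr1, Bcl11b, Cux1, Cux2, Foxp1, Foxp2, Mef2c, Neurod2 and Neurod6 help to set the identity of excitatory neurons in the cerebral cortex. They were chosen by symbol, and all 9 were found among the 20823 mouse genes whose annotated transcripts have a 5′ UTR, a coding sequence (CDS) and a 3′ UTR. Each gene is described on its longest transcript.

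Ribosome profiling sequences the stretches of mRNA that ribosomes shield from nuclease, so a read stands for 1 ribosome footprint. It was applied here to primary cortical neurons of CD-1 mouse embryos, grown for 12 days in vitro, with dishes pooled by 3 for each library. WT cells were left without drug. Chx cells were given cycloheximide at 100 μg/ml for 2 min, which stops elongating ribosomes in place. Harr cells were given harringtonine at 2 μg/ml for 2 min, which holds ribosomes at start codons while those already elongating run on, and then a pulse of cycloheximide. Cycloheximide at 100 μg/ml was also in the buffers in which the cells of all 3 groups were rinsed and lysed, so the WT footprints are not free of it. The lysates were digested with micrococcal nuclease and monosomes were collected. Each treatment has 1 library, so no difference below has a replicate check. The 95% intervals describe counting error alone, and any PCR copies left after the authors' removal of duplicates may stem from the same molecule.

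Neurons of the cortical layers take on their identity through transcription factors that act after the last division of their progenitors. The T-box factor Tbr1, the zinc finger protein Bcl11b (Ctip2) and the forkhead factor Foxp2 mark neurons of the deep layers, and the homeodomain proteins Cux1 and Cux2 mark those of the upper layers. The basic helix-loop-helix factors Neurod2 and Neurod6 act in the differentiation of postmitotic excitatory neurons, Mef2c is a MADS-box factor linked to neuronal activity and synapse number, and Foxp1 is a forkhead factor of projection neurons. Several of these proteins, Mef2c and Bcl11b among them, are also known from some inhibitory neurons.

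The libraries held 30219197 (WT), 35722483 (Chx) and 9754412 (Harr) aligned reads. The 6 markers of neurons and the 4 of excitatory neurons were all above 0 in every library, at 9246, 8462 and 9848 and at 380, 444 and 508 summed CDS reads per 1000000 CDS reads in WT, Chx and Harr. Single markers moved apart within these sums. In Harr, Map2 (4045, 3667 and 7505) and Grin2b (208.5, 224 and 345) were at their highest, whereas Tubb3 (1500.0, 1580.0 and 699), Stmn2 (2091, 1642 and 345), Snap25 (798, 582.5 and 362), Rbfox3 (26.7, 24.99 and 14.3) and Camk2a (85.2, 104 and 64.9) were at their lowest. The 8 markers of inhibitory neurons, among them the GABA-synthesizing enzyme Gad1, reached 3578, 3211 and 1879, so the cultures held inhibitory neurons too, and footprints of the 9 factors cannot be assigned to a cell type. The summed markers of astrocytes (386, 345 and 204) and of progenitors and radial glia (673, 583 and 433) were lower in Harr. In the latter sum Vim (394, 334 and 134) and Sox2 (104, 86.9 and 37.9) were lowest in Harr, whereas Nes (103, 90.9 and 145), Mki67 (17.6, 16.1 and 34.7) and Top2a (45.1, 48.8 and 79.0) were highest in Harr. The part of other cell types in the differences below was not tested. Microglial markers summed to at most 4.95, oligodendrocyte markers to at most 11.5 with Mog and Mobp at 0 throughout, and endothelial markers to at most 0.445.

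The start codons of the 9 factors are shown first, because harringtonine acts on ribosomes at start codons and the tables count a read at its 5′ end, which places the footprint of a ribosome on a start codon upstream of it, in the 5′ UTR. Each line gives the 24 bases before the start codon, the ATG in capitals and the next 3 bases, read 5′ to 3′ from the GENCODE M21 transcripts (GRCm38, the mm10 build).
Tbr1: ggccagcgttcaggttctagagctATGcag
Bcl11b: gatgccagaatagatgccggggcaATGtcc
Foxp2: ttggaaagagaaaggtattaagtcATGatg
Cux1: cactccgtctcaatatgtctcaagATGgcg
Cux2: gatgtgccagagggaatcagagcgATGgta
Foxp1: aaataaataaaaggtttttgagtcATGatg
Mef2c: agagagagaagaaacacggggactATGggg
Neurod2: cccttgactcctctctgaggcaccATGctg
Neurod6: aaggtaaattaaggttaaagaaccATGtta
The windows of Tbr1 (chr2:61804684-61804713, plus strand), Bcl11b (chr12:108003138-108003167, minus strand), Cux1 (chr5:136567235-136567264, minus strand) and Mef2c (chr13:83575653-83575682, plus strand) each lie in 1 exon. Those of Cux2 (between chr5:121921344 and chr5:121924816, minus strand), Foxp1 (between chr6:99163013 and chr6:99260357, minus strand), Foxp2 (between chr6:15084562 and chr6:15196966, plus strand), Neurod2 (between chr11:98328331 and chr11:98329452, minus strand) and Neurod6 (between chr6:55679645 and chr6:55680966, minus strand) are split by an intron.

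All 9 start codons have a purine at the Kozak position upstream of the ATG, the third base before it, which 84.1% of the 20624 genes with an ATG start share, and 3 of 9 (Cux1, Cux2 and Mef2c) have a G right after it, against 49.2%. An ATG upstream of the start codon, searched on the transcript strand, is present in all 9 leaders and in 55.5% of all genes. Neurod6 has 14 of them, each with a stop codon before the CDS, and 2.37% of genes have as many. Cux1 has an ATG 10 nucleotides before its start codon and Bcl11b has them 11 and 23 nucleotides before, and Cux2 has an ATG 23 nucleotides before, all within a footprint's length of the annotated start, so that reads there cannot be told apart by start codon. These letters are a description and do not show that any of these triplets was used.

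The level of each factor was taken as CDS reads per kilobase and per 1000000 CDS reads of the library. Mef2c was the highest of the 9, at 379 (95% interval 371 to 387) in WT, 318 (312 to 325) in Chx and 339 (324 to 355) in Harr, which placed it among the top 2.72% of all genes in every library. Neurod6 followed with 213, 224 and 237 in the same order, and Tbr1 with 79.7, 85.1 and 116. Neurod2 stood at 55.4, 68.9 and 44.4, and Bcl11b at 40.7, 41.0 and 44.1. Below them, Foxp1 stood at 26.9, 30.5 and 39.3, Cux1 at 13.2, 9.63 and 11.9, Foxp2 at 7.83, 5.38 and 6.67, and Cux2 at 6.89, 6.01 and 10.6. Every one of the 9 had CDS reads in every library, from 54 (Foxp2 in Harr) to 9362 (Mef2c in Chx). In a bulk lysate, fewer cells of a type, less mRNA per cell and fewer ribosomes per mRNA cannot be told apart.

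**Figure D1:**
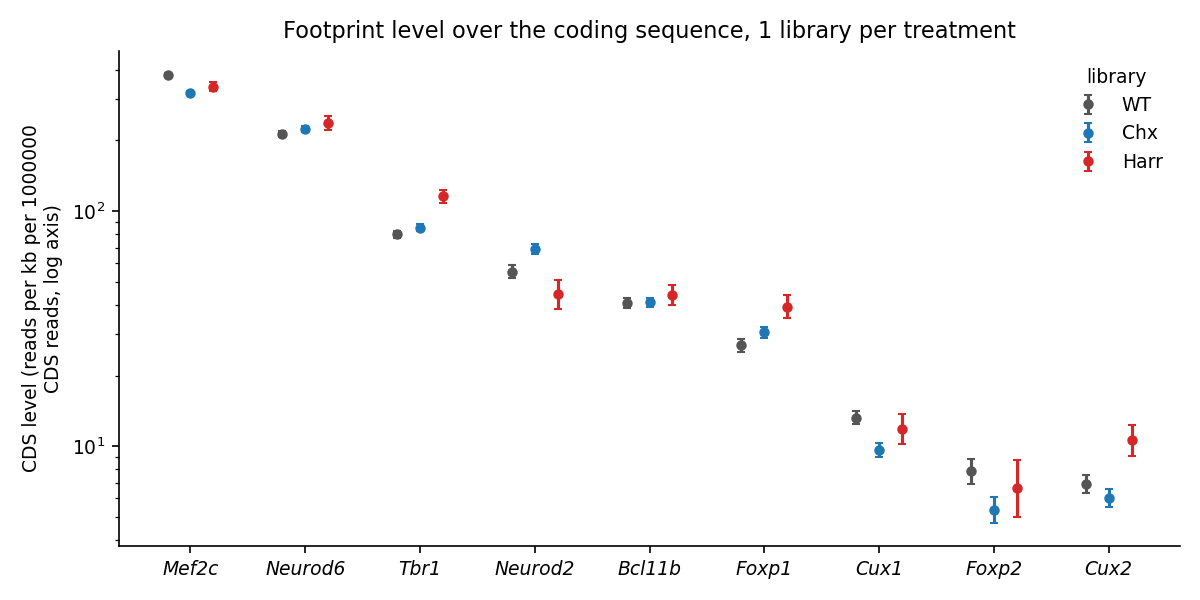
CDS level of each factor (reads per kilobase and per 1000000 CDS reads, log axis) in the WT, Chx and Harr libraries, with 95% counting intervals. Mef2c is highest in all 3 libraries (318 to 379), and the intervals of Foxp2 and Cux2 overlap in WT and in Chx.

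The order of levels from Mef2c down to Cux1 was the same in WT and Chx, with no overlap between the intervals of neighbours. At the lower end, Foxp2 and Cux2 overlapped in both libraries and exchanged places. In Harr, Neurod2, Bcl11b and Foxp1 overlapped as a chain, as did Cux1 and Cux2, while Mef2c, Neurod6 and Tbr1 stayed apart from their neighbours.

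To ask whether a drug changed the footprint level of a factor, CDS levels were compared between libraries. A gene was called when it had at least 100 CDS reads over the 3 libraries, a ratio of at least 2-fold and a 95% interval that excluded equality. None of the 9 was called in Harr against Chx, where 18.3% of 11459 genes were called in either direction, in Harr against WT (19.6%) or in Chx against WT (0.323%). By the interval alone, 6 of 9 differed between Harr and Chx (65.0% of all genes), 6 of 9 between Harr and WT (66.4%) and 8 of 9 between Chx and WT (49.1%).

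Neurod2 was the only factor lower in Harr than in Chx by that interval, with a log2 ratio of -0.63 (-0.85 to -0.42), and it was also lower in Harr than in WT at -0.32 (-0.54 to -0.10). Cux2 had the highest ratio of the 9, 0.83 (0.58 to 1.08) for Harr over Chx, from 172 against 520 reads. Tbr1 had a ratio of 0.44 (0.34 to 0.55). These signs hold within CDS reads. Scaled by all reads of the library, every Harr over Chx ratio shifts by -0.55, which leaves 1 of 9 above 0 (Cux2 at 0.28) and puts Neurod2 at -1.18, past the 2-fold limit. Against WT the shift is -0.51 and 3 of 9 stay above 0.

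Between Chx and WT the differences were small. Foxp2 was lower in Chx by -0.54 on the log2 scale (-0.79 to -0.29), which only 2.13% of all genes tested fell below, and Cux1 by -0.46 (-0.59 to -0.33), which 3.90% fell below. Mef2c was lower at -0.25 (-0.29 to -0.21) and Cux2 at -0.20 (-0.38 to -0.02). Neurod2 was higher in Chx, at 0.31 (0.20 to 0.43), as were Foxp1, Tbr1 and Neurod6 at 0.18, 0.10 and 0.07.

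The 5′ UTR reads were compared next, to ask how far each drug moved footprints of these mRNAs ahead of the CDS. Summed over the 9 factors, the 5′ UTR held 7.60% of 5′ UTR, CDS and 3′ UTR reads in WT (Wilson 95% interval 7.26 to 7.95), 10.7% in Chx (10.3 to 11.02) and 38.6% in Harr (37.5 to 39.6). Over all genes the shares were 6.14%, 8.71% and 33.5%. The factors ranged widely among themselves. In Harr, Neurod6 had 64.3% of its reads in the 5′ UTR (62.5 to 66.1) and Bcl11b 53.8% (50.7 to 56.9), whereas Tbr1 had 13.3% (11.3 to 15.5). Mef2c had 15.5% (14.1 to 17.1) on its longest transcript but 47.4% (45.8 to 49.0) on the transcript with the most reads, which has another first exon.

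**Figure D2:**
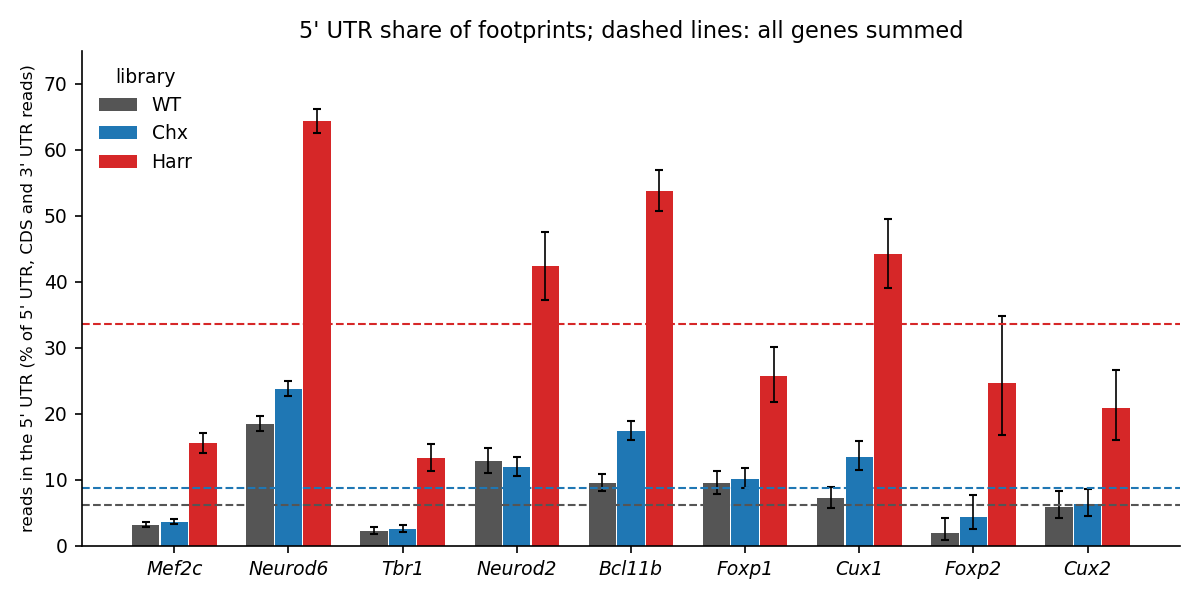
Share of each factor's reads that lie in the 5′ UTR (percent of 5′ UTR, CDS and 3′ UTR reads) in WT, Chx and Harr, with Wilson 95% intervals, and dashed lines for all genes summed in the same colours. In Harr, Neurod6, Bcl11b, Cux1 and Neurod2 lie above the line for all genes (33.5%) with their whole interval, and Mef2c, Tbr1, Foxp1 and Cux2 lie below it on their longest transcripts, though Mef2c has 47.4% on the transcript with the most reads.

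Neurod6 had 820 5′ UTR reads and 3599 CDS reads in WT, 1435 and 4580 in Chx, and 1741 and 908 in Harr. It is the only factor besides Bcl11b with more 5′ UTR than CDS reads in a library. Bcl11b had 190 and 1800 in WT, 465 and 2198 in Chx, and 529 and 442 in Harr. Per nucleotide, its 5′ UTR was 0.611 times as dense as its CDS in WT, 1.22 times in Chx and 6.92 times in Harr. For Cux1 it was 1.61, 3.26 and 16.5, from 73, 130 and 152 reads in a 5′ UTR of 205 nucleotides. Over coding exons 1 to 14 alone, where most of its CDS reads lie, it was 0.558, 1.17 and 8.16, a comparison added after seeing the data, so its place among the 9 in WT and Chx depends on which exons are counted, while in Harr it is the highest either way.

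For each gene, the odds of a read lying in the 5′ UTR rather than the CDS were divided between a pair of libraries and put on the log2 scale, and a change was called with at least 10 5′ UTR reads in both together, a size of at least 1 and an interval that excluded 0. All 9 factors were higher in Harr than in Chx, where 88.8% of 10806 genes were, and their median of 2.50 lies beside 2.45 for all genes. Foxp2 had the highest value, 3.002 (1.88 to 4.12), from 21 against 11 5′ UTR reads, but 1.39 on its transcript with the most reads. Foxp1 had the lowest on the longest transcripts, 1.61 (1.22 to 2.01), and its interval did not reach the median of all genes. Its CDS count there includes reads just before a second start codon, 62 in Chx and 88 in Harr, described below. The ratio without them was not tested. The other 7 lay between 1.98 (Cux2) and 2.61 (Neurod6). On the transcripts with the most reads Mef2c was the highest instead, at 2.96 (2.83 to 3.09), and Cux2 (1.66) lay below Foxp1 (1.962).

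In Harr against WT the call was made for 93.7% of 10384 genes. Foxp2 had 6 5′ UTR reads in WT and 21 in Harr, so it reached the minimum only through Harr, and its 4.09 (2.76 to 5.42), or 1.52 on its transcript with the most reads, is given as a value and not counted. The other 8 had the minimum in WT alone and were all higher in Harr, where 94.2% of 8294 such genes were, with a median of 2.62 against 3.13. On the longest transcripts Foxp1 was again lowest, at 1.73 (1.30 to 2.16). On those with the most reads Cux2 (1.90) lay below Foxp1 (2.06). Mef2c went from 2.50 on its longest transcript to 3.78 (3.63 to 3.94) on the one with the most reads, above the median of all genes. Both comparisons share the Harr library, so the second is no independent look at it.

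Between Chx and WT, 2 of 9 factors were called higher, where 30.2% of 10483 genes were, and none was called lower. These were Bcl11b at 1.00 (0.74 to 1.26) and Cux1 at 1.01 (0.58 to 1.44), both at the limit itself, so that adding 5 instead of 0.5 to each count leaves none called. Neurod6 had a value of 0.46 (0.32 to 0.60) below the limit. The median of the 9 was 0.20 against 0.66 for all genes, and the intervals of Tbr1, Cux2, Foxp1, Foxp2, Mef2c and Neurod2 included 0 on the longest transcripts. On the transcript with the most reads Mef2c stood at 0.83 (0.68 to 0.97), an interval that excludes 0.

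**Figure D3:**
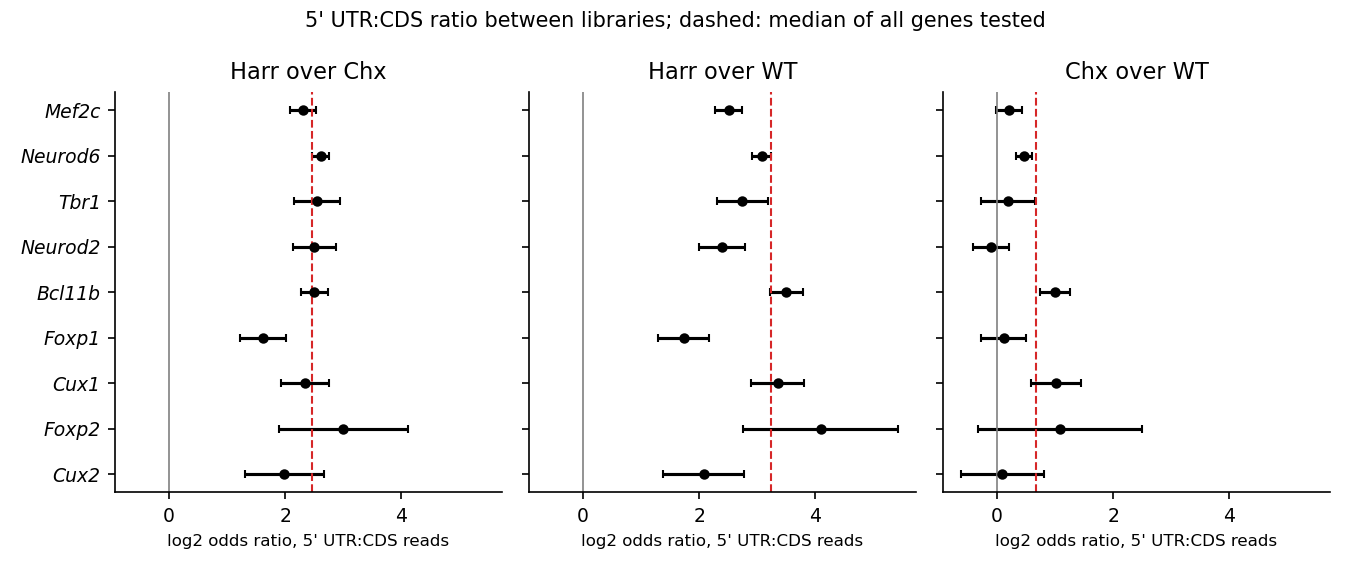
Log2 odds ratio (5′ UTR to CDS reads) for each factor and each pair of libraries, with 95% counting intervals, a grey line at 0 and a dashed line at the median of all genes tested. All 9 factors lie right of 0 in both Harr comparisons, with Foxp1 (1.61 and 1.73) lowest, and on these longest transcripts only Bcl11b, Cux1 and Neurod6 have intervals off 0 in Chx over WT, though Mef2c has 0.83 (0.68 to 0.97) on the transcript with the most reads.

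Since the tables give 1 count for each exon segment of each transcript, segments that share 1 end can be subtracted, which places reads more finely than whole regions do. Cux1 is the case with the finest division at a start codon. The stretch from 23 to 13 nucleotides before its ATG held 52 of 73 5′ UTR reads in WT (71.2%, 59.99 to 80.4), 104 of 130 in Chx (80.0%, 72.3 to 86.0) and 140 of 152 in Harr (92.1%, 86.7 to 95.4). Most 5′ UTR footprints of Cux1 therefore began in 11 of its 205 nucleotides, just ahead of the annotated start codon. The 167 nucleotides at the 5′ end held 2, 4 and 4 reads. These finer divisions, here and below, were chosen after their values were seen.

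In Neurod6 the reads were spread differently. The 21 nucleotides that precede the ATG in the start exon held 137, 83 and 285 reads in WT, Chx and Harr, and the upstream exon of 300 nucleotides held 683, 1352 and 1456. The start exon thus had 16.7% of the 5′ UTR reads in WT (14.3 to 19.4), 5.78% in Chx (4.69 to 7.11) and 16.4% in Harr (14.7 to 18.2), so most footprints lay in the exon that carries its upstream ATGs. In Neurod2, whose upstream exon has 215 nucleotides and 4 upstream ATGs, that exon held 142, 198 and 117 reads. The 5 nucleotides before its ATG held 14, 21 and 32. A footprint that began 23 to 13 nucleotides before the ATG, as most did in Cux1, would lie in the upstream exon of Neurod2, and likewise of Cux2, Foxp1 and Foxp2, so there the exon border does not separate ribosomes on the start codon from those farther upstream.

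Bcl11b has a single 5′ UTR exon, whose 271 nucleotides next to the ATG held 143, 388 and 369 reads and whose 188 nucleotides farther upstream held 47, 77 and 160. Relative to CDS reads of the library, the log2 ratio of Chx over WT was 1.16 (SE 0.14) in the near stretch and 0.43 (SE 0.27) in the far one. In Cux2 the upstream exons went from 13 reads in WT and 18 in Chx to 38 in Harr, and the 12 nucleotides before the ATG had 18, 17 and 8. The stretch from 103 to 13 nucleotides before the ATG held 5, 9 and 21 of the upstream reads. Tbr1 has 1 5′ UTR exon of 255 nucleotides, with 62, 92 and 137 reads. A stretch of another Tbr1 transcript (chr2:61803537-61804558) covers the 5′ end of this exon and held 11, 11 and 3 reads in all. Most of the 5′ UTR reads of Tbr1 therefore began nearer the ATG.

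Mef2c showed that the longest transcript need not be the one in use. Its 2 upstream 5′ UTR exons, 233 nucleotides in all, held 0 reads in WT, 1 in Chx and 0 in Harr. A first exon of 546 nucleotides that is annotated as 5′ UTR of other Mef2c transcripts (chr13:83524535-83525080, plus strand) held 328, 782 and 1369. Its last 161 nucleotides, which are also annotated as 3′ UTR of a short Mef2c transcript, alone held 253, 672 and 1083. On the transcript with the most reads, which has 468 nucleotides of this exon and 2 upstream ATGs, the 5′ UTR:CDS odds ratio of Mef2c stood at 2.96 on the log2 scale for Harr over Chx, against 2.30 on the longest one. In the start exon, 133 of 300, 124 of 351 and 142 of 345 5′ UTR reads began in the first 3 nucleotides after the splice junction, in WT, Chx and Harr.

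The coding exons of Mef2c also differed in use. An alternative exon of 138 nucleotides in the longest transcript held 12, 7 and 1 reads, or 87.0, 50.7 and 7.25 per kilobase. The extension of coding exon 3 by 84 nucleotides, which the longest transcript lacks, held 196, 297 and 19, or 2333, 3536 and 226 per kilobase. A 48-nucleotide exon downstream held 55, 84 and 4.

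Foxp1 has a second annotated start codon in coding exon 3, 390 nucleotides and 130 whole codons downstream of the first, used by shorter transcripts with their own first exon. Its context, from a shorter transcript and on the minus strand between chr6:99016642 and chr6:99028169, is shown beside that of the first start codon because the Harr reads of Foxp1 gathered there.
Foxp1, first start codon: aaataaataaaaggtttttgagtcATGatg
Foxp1, second start codon: tgtcaggttcccgtgtcagtggctATGatg
The 18 nucleotides of the exon that precede the second ATG (chr6:99016648-99016665) held 45 reads in WT, 62 in Chx and 88 in Harr. They made up 47.9% of the reads of that exon in WT (38.1 to 57.9), 33.7% in Chx (27.3 to 40.8) and 85.4% in Harr (77.4 to 91.0). The first exon of the shorter transcripts, 95 nucleotides long and not part of the longest one, held 6, 33 and 55 reads. By comparison, the 372 nucleotides of coding exons 1 and 2, upstream of the second start codon and coding only in the longer form by annotation, held 64, 84 and 15, or 172, 226 and 40.3 per kilobase, against 491, 645 and 122 per kilobase in coding exons 4 to 16.

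Cux1 divides at its 3′ end. Coding exons 1 to 14 are shared with a transcript that ends in 9 other coding exons (apart from a few nucleotides of coding exon 11), the arrangement known for CASP, a Golgi membrane protein without the homeodomain, whereas coding exons 15 to 24 carry the homeobox. The 1255 shared nucleotides held 801, 680 and 114 reads, the 3026 nucleotides of the homeobox-containing end 144, 153 and 78, and the 782 nucleotides of the alternative end 188, 200 and 93. Per nucleotide, the alternative end was 5.05 times as dense as the homeobox-containing end in WT (4.07 to 6.28), 5.06 times in Chx (4.10 to 6.24) and 4.61 times in Harr (3.42 to 6.23). The shared exons held 84.8% of the WT reads in the longest CDS (82.3 to 86.9), so the CDS level of Cux1 given above cannot be assigned to the homeodomain protein.

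**Figure D4:**
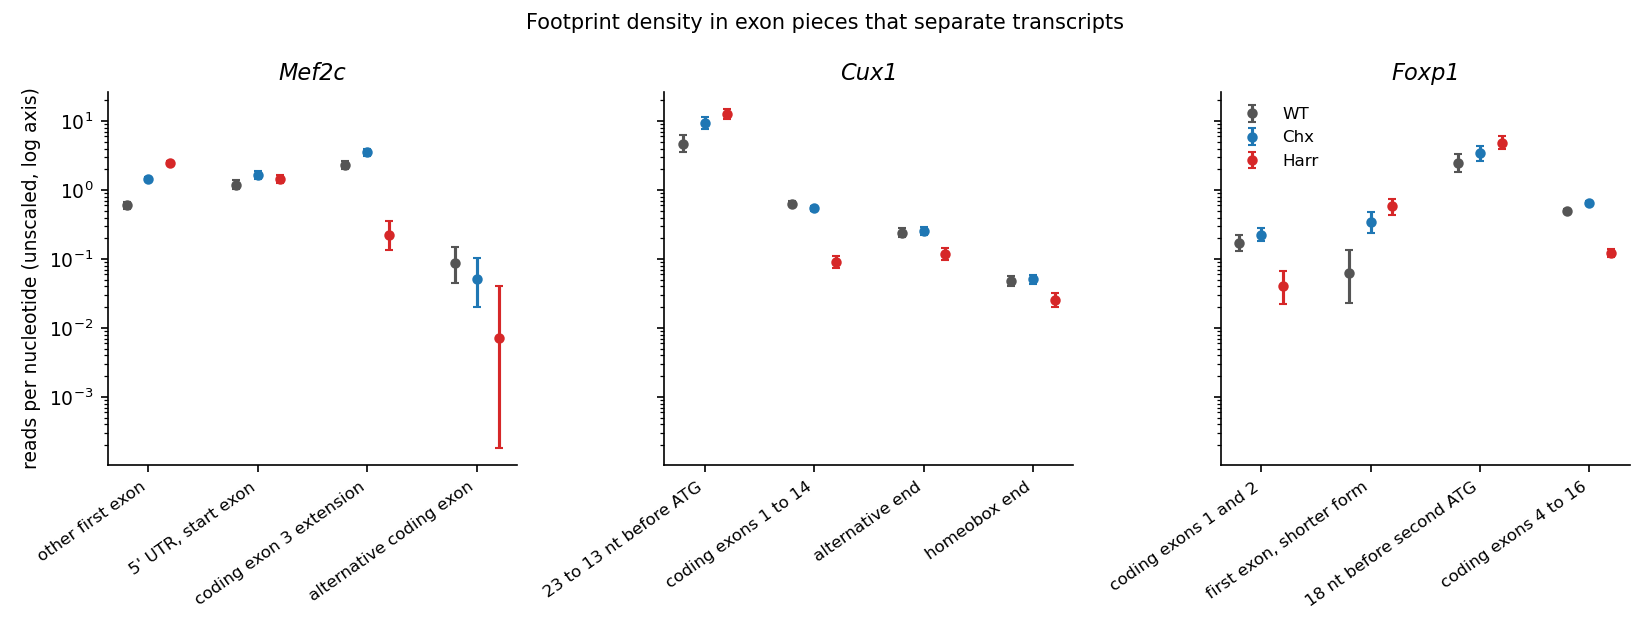
Reads per nucleotide (not scaled between libraries, log axis) in exon pieces that separate transcripts of Mef2c, Cux1 and Foxp1, with exact Poisson 95% intervals, in WT, Chx and Harr. The other first exon of Mef2c, the stretch ahead of the Cux1 start codon and the 18 nucleotides before the second ATG of Foxp1 are highest in Harr, the library with the fewest reads, while the coding pieces are lowest in Harr.

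Run-off was followed along the CDS, since ribosomes that elongate during the harringtonine treatment leave the start of the CDS first. Coding segments whose own middle lies past the midpoint of the CDS were taken as late and set against the early ones, for the 7 factors with more than 1 coding segment (Neurod2 and Neurod6 have 1). In Mef2c, the late part held 3557 reads against 5629 early ones in WT, 3874 against 5488 in Chx and 1491 against 371 in Harr. This late:early ratio exceeded that of Chx by a log2 value of 2.51 (2.33 to 2.68), above 97.1% of all genes tested. Tbr1 went from 971 late and 1746 early reads in WT and 1284 and 2236 in Chx to 552 and 341 in Harr, a change of 1.49 (1.28 to 1.71) over Chx.

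With Foxp2 at 1.79 (0.89 to 2.69) and Cux1 at 1.28 (0.78 to 1.79), 4 of 7 factors were called higher in Harr than in Chx, where 32.2% of 11048 genes were. The same 4 were called in Harr against WT, where 32.1% of 10933 were, and none between Chx and WT, where 1.15% of 11413 were called higher. Cux2 lay at 0.95 (0.44 to 1.45) and Foxp1 at 0.51 (0.15 to 0.86) for Harr over Chx. Bcl11b, at -0.10 (-0.40 to 0.20), kept a late:early ratio of 1.42, 1.59 and 1.48 in WT, Chx and Harr, with no shift beyond counting error. Its late part is the last coding segment, which starts 640 nucleotides into a CDS of 2655. These calls depend on where the CDS is divided. Split at 600 nucleotides from the start codon, 2 of 7 were higher in Harr than in Chx (Mef2c at 2.47 and Tbr1 at 1.29), where 39.0% of 8698 genes were, Cux1 stood at 0.72 and Foxp2 turned to -0.20. Foxp1 was called lower at -1.01, where 3.24% of genes were. Against WT, 3 of 7 were called higher (37.9% of 8598 genes) and Foxp1 was lower at -1.30 (4.43%). The 18 nucleotides before the second start codon count as early CDS on the longest transcript. Without them, and with the CDS divided at its midpoint again, Foxp1 had 151 late and 75 early reads in Harr. Its change over Chx was then 1.504 (1.07 to 1.93), against 0.51 with them, an alternative chosen after seeing the data. It was not tried for the split at 600 nucleotides.

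**Figure D5:**
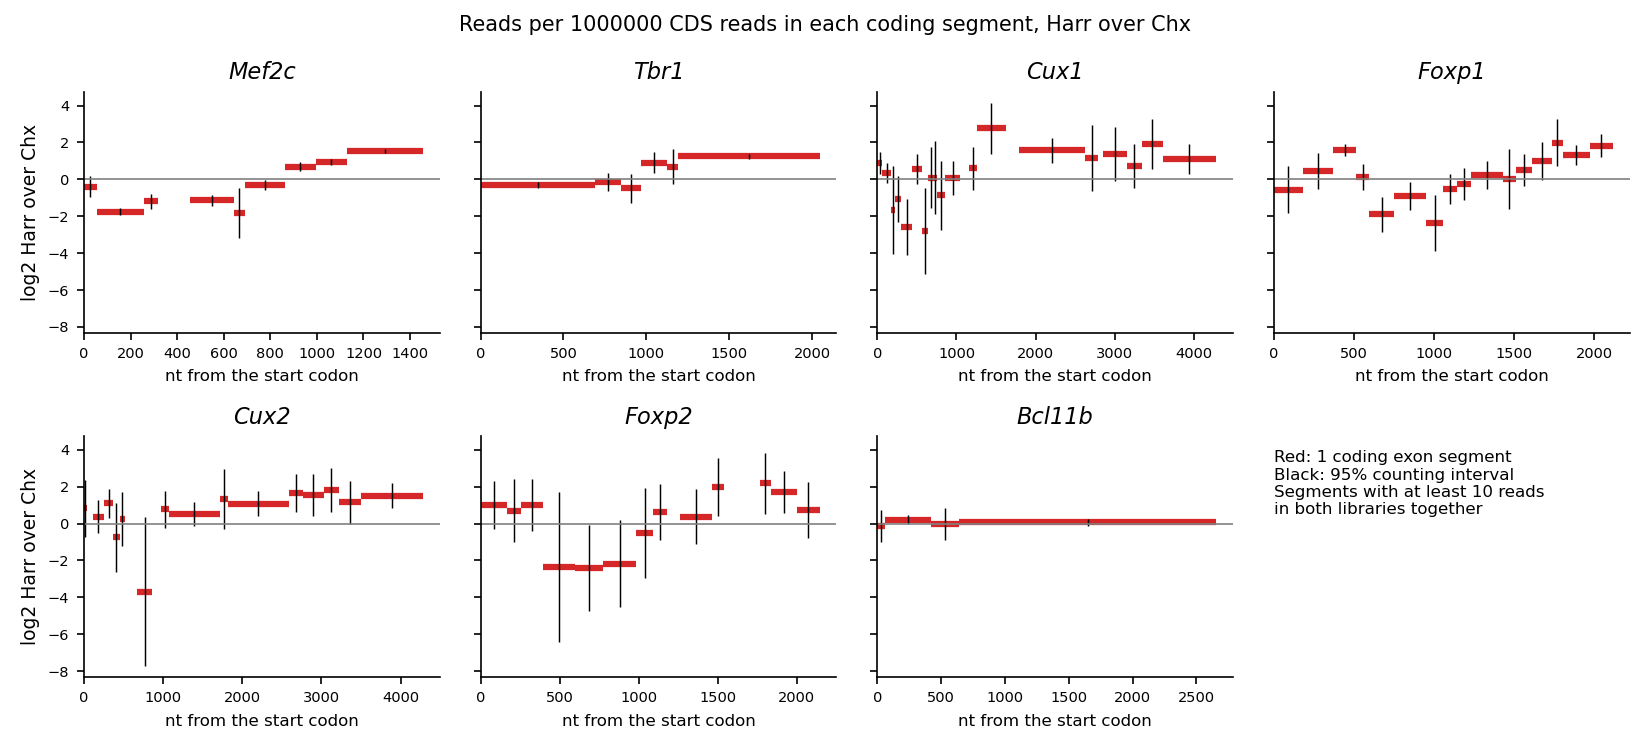
Log2 ratio of Harr over Chx (reads per 1000000 CDS reads) in each coding exon segment, by distance from the start codon in nucleotides, for the 7 factors with several coding segments and for segments with at least 10 reads in both libraries together; black lines are 95% counting intervals. Mef2c lies below 0 up to 864 nucleotides, with its lowest value of -1.81 between 643 and 691, and above 0 beyond, up to 1.54, Foxp1 has a peak of 1.59 in coding exon 3, and Bcl11b stays near 0.

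Along Mef2c, the segment from 54 to 258 nucleotides after the start codon fell from 3438 reads in Chx to 191 in Harr, a log2 ratio of -1.75 (SE 0.11) relative to CDS reads. The ratio was -1.12 (SE 0.15) between 456 and 643 nucleotides, -1.81 (SE 0.70) between 643 and 691, from 84 reads in Chx and 4 in Harr, -0.29 (SE 0.14) between 691 and 864, 0.68 (SE 0.12) between 864 and 994, and 1.54 (SE 0.06) in the last segment, between 1130 and 1455. The first coding segment, the 54 nucleotides from the ATG, stood at -0.39 (SE 0.29), higher than the segment after it.

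Foxp1 had a similar course beyond its second start codon. Its ratio was 1.59 (SE 0.18) in the segment that contains that codon, -1.89 (SE 0.48) from 597 to 748 nucleotides, -2.36 (SE 0.79) from 953 to 1058 with 3 reads in Harr against 96 in Chx, and 1.82 (SE 0.32) in the last segment. Foxp2 had 0, 1 and 1 Harr reads in coding segments 4, 5 and 6 against 13, 42 and 36 in Chx, between 396 and 986 nucleotides, and 6, 3 and 5 against 17, 11 and 14 in the first 3. Cux2 had 0 Harr reads from 669 to 861 nucleotides, against 34 in Chx and 22 in WT. In Bcl11b the 4 segments lay between -0.12 and 0.22, and its last segment alone spans 2015 nucleotides, so a change within it cannot be seen.

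Footprints in the 3′ UTR were few. Summed over the 9 factors, they made up 0.381% of reads in WT (0.309 to 0.469), 0.229% in Chx (0.179 to 0.293) and 1.35% in Harr (1.12 to 1.62), against 2.19%, 1.72% and 4.10% over all genes. Cux1 had 2, 1 and 0 reads in a 3′ UTR of 8376 nucleotides. The 0 in Harr allows up to 3 reads, the limit used for a count of 0. Foxp2 had the highest share, with 17, 8 and 10 reads, which is 5.61% (3.53 to 8.80), 3.18% (1.62 to 6.14) and 11.8% (6.52 to 20.3).

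Bcl11b, Foxp2, Mef2c, Neurod2 and Neurod6 had the 10 reads needed to call a 3′ UTR:CDS ratio. In Harr, 85.6% of 5270 genes were called higher than in Chx and 79.0% of 5856 higher than in WT. Some reached the minimum only through Harr, among them Bcl11b (7 reads in Chx and 12 in Harr) and Foxp2 (8 and 10) against Chx, and Neurod2 (2 in WT and 10 in Harr) against WT, and these are not counted. With the minimum in Chx alone, Mef2c, Neurod2 and Neurod6 remained and all 3 were higher in Harr, where 72.2% of 2337 such genes were, and Neurod6 stood at 4.45 (3.59 to 5.31) from 58 against 13 reads. With the minimum in WT alone, the 4 other than Neurod2 were all higher in Harr, where 73.4% of 3573 were, and Neurod6 stood at 3.08 (2.41 to 3.74) from 58 against 27. In Chx against WT, Neurod6 was called lower, at -1.37 (-2.32 to -0.43), where 38.5% of 4646 genes were. Tbr1, Cux1, Cux2 and Foxp1 had too few 3′ UTR reads for a call.

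A list of 25 other transcription factors of cortical projection neurons, with the close relatives Foxp4, Mef2a, Mef2b, Mef2d and Neurod4, was read in the same way. With the minimum of 5′ UTR reads in Chx alone, 19 of 19 were higher in Harr than in Chx (89.8% of 9822 such genes). Their median was 2.67. They ranged from 1.49 (Pou3f3, a POU factor of the upper layers) to 3.39 (Neurod1, a relative of Neurod2). With the minimum in both libraries together it was 21 of 21 (88.8% of all genes), but some of these reached it only with Harr. In Harr against WT 20 of 22 were called higher (93.7% of all genes), or 18 of 19 with the minimum in WT alone (94.2%), and in Chx against WT 2 of 22 (30.2%). In CDS level, 1 of 21 was called, the POU factor Pou3f1, higher in Harr than in WT by 1.22, where 19.6% of all genes were called in either direction. In the late:early ratio, 13 of 17 were higher in Harr than in Chx (32.2% of all genes), with a median of 1.82 against 1.28 for the factors above and 0.64 for all genes.

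Among the relatives, Mef2a and Mef2d had CDS levels of 60.5 and 51.6 in WT, below the 379 of Mef2c, and Mef2b had 1.54. The 5′ UTR:CDS ratio rose in Harr over Chx by 2.82 in Mef2a (2.42 to 3.23) and by 3.35 in Mef2d (3.09 to 3.60), while Mef2c stood at 2.30 (2.07 to 2.53) on its longest transcript and at 2.96 (2.83 to 3.09) on the one with the most reads. Foxp4 had a CDS level of 19.1 in WT, between Foxp1 and Foxp2. Neurod1 had 14.8, below Neurod2, and Neurod4 had no CDS read in WT or Chx and 2 in Harr. The progenitor factor Neurog1 had none in any library.

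For each factor, the gene with the nearest pattern was sought among 10406 candidates by the distance over 9 log2 values (CDS level, 5′ UTR:CDS density ratio and 3′ UTR:CDS density ratio in 3 libraries). Tmx3 lay nearest to Bcl11b at a distance of 0.839, Trove2 to Tbr1 at 0.989, Slc20a2 to Cux2 at 1.05 and Hist1h2bp to Mef2c at 1.07. Mmachc lay nearest to Neurod2 at 1.22, Wdr6 to Neurod6 at 1.35, Nyap2 to Foxp1 at 1.44, Tfap2d to Foxp2 at 1.47 and Fn3k to Cux1 at 1.69. The median distances from the factors to all candidates lay between 5.93 and 10.97. Hist1h2bp, Fn3k and Tfap2d had no 3′ UTR read in any library, so part of their nearness rests on counts of 0.

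Reads could be shared with other genes only in part. Of all stretches of 25 nucleotides in the longest transcripts, between 0.253% (Tbr1) and 5.90% (Foxp1) also occur in a transcript of another gene on either strand. In Foxp1 they take up 89.4% of the 5′ UTR, which overlaps the same-strand gene Gm20696, so its 5′ UTR reads cannot be told apart from those of that gene. In Cux1 8.67% of the CDS is shared, mostly with the antisense gene Gm16599. Foxp2 shares 5.18% of its CDS with other genes, most of all with Foxp1. No CDS of another gene overlaps any of the 9 transcripts on the same strand.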

How the data were processed

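Ribosome footprints of WT, Chx and Harr cortical neurons were analysed from deposited tables, 1 library per treatment, grouped by the sample labels. Per the file headers, the authors removed ribosomal reads and duplicates, kept reads of 25 to 100 nucleotides aligned to mm10, and with plastid assigned each read to its 5′ end without offset. The deposited tables give the read count of each exon segment of 5′ UTR, CDS and 3′ UTR. The authors' coverage column is that count per nucleotide, and the deposited RPKM divides it by the length in kilobases and by the header total in units of 1000000 reads; both were recomputed from the counts and were not used further. The study's methods name Rsubread for mapping to mm10 ahead of plastid and TopHat for a search for open reading frames in these treatments; which made the alignments behind these tables is not given in the sources used here. Sample descriptions that name fractions of another experiment were not used.

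Of 142446 transcript identifiers, 99.1% matched GENCODE M21 with version and 99.4% without. The longest transcript with all 3 regions stood for each gene. Counts were summed over segments and CDS levels scaled to CDS reads. Log2 ratios used a pseudocount of 0.5, with minimums of 10 UTR reads, 100 CDS reads and 10 reads in each part of the CDS. Calls needed 2-fold and a 95% counting interval off equality. The procedure was tested on simulated data. Python 3.11.15 with numpy 2.4.6, pandas 2.3.3, scipy 1.17.1 and statsmodels 0.14.6 was used. The genes named were the 9 factors, 25 other factors and, for each factor, the gene at the smallest distance over 9 log2 values. Members and lists were chosen with earlier results of these data known. With 1 library per treatment no test across samples was possible, so no p-value is given. The alternatives tried were other transcripts, minimums, pseudocounts, scalings, fold limits and splits of the CDS.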

Additional observations from a re-analysis of the deposited data

How the results depend on the processing

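No paired analysis was possible because each treatment has 1 library, all numbered 1. Of 124 summary values under alternatives, 102 kept their size and side of the limit and 0 changed direction. With upstream 5′ UTR exons only, 5 factors had a value, and Foxp2 among them reached the minimum against Chx and against WT only through Harr. It is not counted. Cux2, Foxp1, Neurod2 and Neurod6 were each called higher in Harr than in Chx and than in WT. No factor was called higher in Chx than in WT. The share of all genes called in this setting is not given here. In Neurod2, Cux2, Foxp1 and Foxp2 these exons still hold reads that begin 13 nucleotides or more before the start codon, so this setting does not remove footprints on it. Over whole 5′ UTRs, the count called higher in Chx than in WT was 1 on the transcript with the most reads and 0 with a pseudocount of 5. Without a fold limit, CDS levels were higher for 5 and lower for 1 in Harr against Chx, 4 and 2 in Harr against WT, and 4 and 4 in Chx against WT. Scaled to all reads, Neurod2 passed the limit, lower in Harr than in Chx. That scaling shifts every gene by -0.55, and the share of all genes called under it is not given here. With the CDS split at 600 nucleotides, 2 of 7 late:early ratios were called higher in Harr than in Chx, 1 (Foxp1) was called lower than in Chx and 1 (Foxp1) lower than in WT, at -1.01 and -1.30, while Foxp2, not called, turned to -0.20 in Harr over Chx. The 5′ UTR shares were 8.87%, 13.1% and 47.1% in WT, Chx and Harr on the transcripts with the most reads, and 10.8%, 14.6% and 46.9% without Mef2c. With 10 3′ UTR reads required in Chx alone, a setting chosen after seeing the data, 3 factors were called higher in Harr than in Chx instead of 5, because fewer could be tested. The cause of the other changes was not tested. Of 303 values for single genes, 261 stayed the same and 1 that had been called reversed, the one for Foxp2 above; Foxp1, which had not been called, changed from above to below 0 in the same setting. Depth limits Foxp2, with 54 CDS reads in Harr, and most 3′ UTR counts.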
